A study of Saccharomyces cerevisiae with 8 samples.

Results

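The genes described here are 10 glycolytic genes of *Saccharomyces cerevisiae*, *FBA1*, *TPI1*, *TDH1*, *TDH2*, *TDH3*, *PGK1*, *GPM1*, *ENO1*, *ENO2* and *CDC19*, out of 6002 annotated protein-coding genes of the nuclear genome. They were taken as a fixed list of names, and all 10 were found in the annotation. No value of the peak lists was used as a criterion, but the members were chosen with earlier results of these data known. Nucleosome peaks and peaks of the centromeric histone CENP-A Cse4 were counted and placed in each reading frame, in the 500 bp upstream of its start and in the 500 bp downstream of its end. Each count is set beside that of genes of like length, here the protein-coding genes from 597 to 1878 bp. Percentages of such genes with at least 1 peak are given over 3375 genes, the members included.

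Glycolysis turns glucose into pyruvate. In the lower part of the pathway, aldolase (Fba1) splits fructose 1,6-bisphosphate into a pair of triose phosphates, which triose phosphate isomerase (Tpi1) interconverts. Glyceraldehyde-3-phosphate dehydrogenase (Tdh1, Tdh2, Tdh3), phosphoglycerate kinase (Pgk1), phosphoglycerate mutase (Gpm1), enolase (Eno1, Eno2) and pyruvate kinase (Cdc19) carry out the later steps. These genes are known as some of the most heavily transcribed genes of budding yeast, and most are regulated by Rap1 and by Gcr1, an activator that binds CTTCC boxes in their promoters. Transcription was not measured in the files used here, so the level of transcription in these cultures was not checked.

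The reading frames lie in the R64 build, with their strand in brackets, as follows. The aldolase and isomerase genes are *FBA1* (YKL060C) at chrXI:326408-327487 (minus) and *TPI1* (YDR050C) at chrIV:555726-556472 (minus). The dehydrogenase genes are *TDH1* (YJL052W) at chrX:338271-339269 (plus), *TDH2* (YJR009C) at chrX:453683-454681 (minus) and *TDH3* (YGR192C) at chrVII:882812-883810 (minus). The kinase and mutase genes are *PGK1* (YCR012W) at chrIII:137746-138996 (plus) and *GPM1* (YKL152C) at chrXI:163642-164385 (minus). The enolase genes are *ENO1* (YGR254W) at chrVII:1000927-1002240 (plus) and *ENO2* (YHR174W) at chrVIII:451327-452640 (plus), and the pyruvate kinase gene is *CDC19* (YAL038W) at chrI:71786-73288 (plus). Frame lengths run from 744 bp (*GPM1*) to 1503 bp (*CDC19*), and the windows on either side are counted from the frame, since transcript ends were not used.

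The study asked where Cse4 goes when there is too much of it, and whether Psh1, a ubiquitin ligase that targets Cse4 for degradation, keeps it out of the chromosome arms. For each of 4 strains 1 input library (MNase-digested chromatin, in which peaks are nucleosomes) and 1 anti-Flag ChIP library were sequenced, giving 8 libraries and 1 library per group. All strains were *MATa* and lacked the endogenous *CSE4* (*cse4::KAN*), living on a Flag-tagged copy under the *CSE4* promoter at *URA3* (*3Flag-CSE4*). The *pGAL-3Flag-CSE4* strains carried a further copy under the *GAL* promoter at *LEU2*, and the *psh1Δ* strains carried *psh1::KAN*. The 4 genotypes, in the order used below, were *3Flag-CSE4*, then *psh1Δ 3Flag-CSE4*, then *pGAL-3Flag-CSE4*, and last *psh1Δ pGAL-3Flag-CSE4*. Asynchronous cells grown in lactic acid medium, on which yeast respires, received 2% galactose for 2 h in all strains, the native ones included, and were fixed with 1% formaldehyde for 15 min. With 1 library per group there is no replicate spread and no test between strains, and every value below describes these libraries.

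The input lists differed in size, with 40108, 31268, 39937 and 18908 peaks in that order of strains, as in every set of 4 values below. The ChIP lists held 17, 66, 4043 and 14199 peaks. Read depth is not in the lists. The labels were checked at *PSH1*, whose reading frame held 8 input peaks in each *PSH1* strain and 0 in each *psh1Δ* strain. Chromosome XI, which carries *FBA1* and *GPM1*, stood apart in the *psh1Δ* inputs. Its density of input peaks was 1.04 times that of the other chromosomes in both *PSH1* inputs, 1.28 times in *psh1Δ 3Flag-CSE4* and 2.39 times where the *GAL* copy was added to the deletion. In the ChIP lists the ratio was 1.07, 5.03, 1.08 and 1.595. In the strains without the *GAL* copy it came from only 1 of 17 and 15 of 66 peaks on chromosome XI. Counts of peaks are therefore also given for the 8 members without *FBA1* and *GPM1*.

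The sequences that the ChIP results turn on come first. All are from the R64 reference (the sacCer3 build), written 5′ to 3′ on the strand of the glycolytic gene. Of the 10 members, only *TDH2*, *FBA1* and *CDC19* had a ChIP peak upstream of the frame in *pGAL-3Flag-CSE4*, against 50.3% of like-length genes. These peaks are shown to place the few upstream peaks of the members in that strain. Capitals mark bases that also lay under an input peak of *pGAL-3Flag-CSE4*.
TDH2 (chrX:454850-454950, minus strand): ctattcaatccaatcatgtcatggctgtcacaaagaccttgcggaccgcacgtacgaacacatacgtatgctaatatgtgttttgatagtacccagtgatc
FBA1 (chrXI:327650-327730, minus strand): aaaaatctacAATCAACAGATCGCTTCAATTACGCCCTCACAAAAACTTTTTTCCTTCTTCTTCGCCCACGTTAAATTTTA
CDC19 (chrI:71580-71660, plus strand): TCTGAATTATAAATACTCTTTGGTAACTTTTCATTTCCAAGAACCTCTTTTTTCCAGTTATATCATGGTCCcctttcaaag
The *TDH2* peak has no capitals, since no input peak of its own strain touched it. The *FBA1* and *CDC19* peaks each had 71 of 81 bases under an input peak.

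Past the reading frames, *pGAL-3Flag-CSE4* ChIP peaks were common, and those of *ENO2* and *PGK1* are shown because they lie in the neighbouring gene, with capitals as above.
ENO2 (chrVIII:452910-452990, plus strand): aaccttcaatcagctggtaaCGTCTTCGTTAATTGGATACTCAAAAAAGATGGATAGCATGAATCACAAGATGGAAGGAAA
PGK1 (chrIII:139180-139400, plus strand): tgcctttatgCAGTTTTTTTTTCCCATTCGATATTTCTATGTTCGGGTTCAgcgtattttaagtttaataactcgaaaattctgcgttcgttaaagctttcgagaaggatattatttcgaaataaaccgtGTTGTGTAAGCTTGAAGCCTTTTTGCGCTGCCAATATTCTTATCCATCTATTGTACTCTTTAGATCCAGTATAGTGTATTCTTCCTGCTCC
The *ENO2* peak lay wholly in *CTR2*, which encodes a copper transporter of the vacuole and is read in the same direction. Of the 221 bp of the *PGK1* peak, 216 bp lay in *POL4*, a DNA polymerase gene read towards *PGK1*.

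In *psh1Δ pGAL-3Flag-CSE4*, each member had an upstream ChIP peak, as did 96.2% of like-length genes. The *TDH3* peak, the only upstream peak of the gene with the fewest input peaks, and the shorter of the *TDH2* peaks are shown from *psh1Δ pGAL-3Flag-CSE4*, with capitals for a CTTCC box on either strand.
TDH3 (chrVII:883930-884180, minus strand): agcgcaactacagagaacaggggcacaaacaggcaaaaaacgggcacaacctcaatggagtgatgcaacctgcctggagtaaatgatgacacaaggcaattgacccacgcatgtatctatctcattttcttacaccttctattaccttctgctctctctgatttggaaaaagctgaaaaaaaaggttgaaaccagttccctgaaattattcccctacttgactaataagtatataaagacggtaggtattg
TDH2 (chrX:455050-455110, minus strand): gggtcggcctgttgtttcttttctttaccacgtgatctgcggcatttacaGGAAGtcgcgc
The *TDH3* peak holds no CTTCC, and the *TDH2* peak holds 1 match, read on the opposite strand.

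Reading frames that have a near-identical copy are a limit of these data. The authors kept pairs of 24-base reads with a mapping score of at least 30, and a read that fits several places equally well is usually scored low. The share of 24-base words that occur only once in the genome was 100% in the *FBA1*, *TPI1*, *PGK1*, *GPM1* and *CDC19* frames. It was 67.6% in *TDH1*, 40.4% in *TDH2*, 46.9% in *TDH3* and 52.2% in both *ENO1* and *ENO2*. The frames of *TDH2* and *TDH3* were identical at 957 of 999 bases, with an unbroken run of 173 bases, and those of *ENO1* and *ENO2* at 1246 of 1314. The flanking windows were made of unique words throughout, with the exception of the *GPM1* upstream window at 95.4%. The first 60 bases of the *TDH* frames show how alike they are, with capitals at bases that differ from *TDH3*.
TDH1 (chrX:338271-338330, plus strand): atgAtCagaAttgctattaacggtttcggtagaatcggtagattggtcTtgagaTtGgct
TDH2 (chrX:454622-454681, minus strand): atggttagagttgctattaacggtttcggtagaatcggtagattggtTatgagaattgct
TDH3 (chrVII:883751-883810, minus strand): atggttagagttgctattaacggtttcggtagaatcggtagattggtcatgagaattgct
*TDH1* differed from *TDH3* at 6 of these bases and *TDH2* at 1.

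In the *PSH1* inputs, reading frames of the glycolytic genes held almost no input peaks. *PGK1*, *TPI1*, *TDH3* and *ENO1* had 0 input peaks in all 4 inputs, and so did *TDH2*. In the *3Flag-CSE4* input, 3 of the 10 genes (*TDH1*, *ENO2* and *CDC19*) had a peak, against 92.8% of like-length genes. In *pGAL-3Flag-CSE4*, *ENO2* alone had a peak, 1 of 10 against 92.9%. The median like-length gene held 5 peaks in each of these inputs, while the 10 members together held 3 and 1.

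The few peaks inside the frames lay near their ends. The *3Flag-CSE4* peak of *TDH1* was centred 84 bp before the last base, and that of *CDC19* 23 bp before it. The *ENO2* peak was centred past the frame, at 15 bp in *3Flag-CSE4* and 10 bp in *pGAL-3Flag-CSE4*, and reached into it by 21 bp and 11 bp. When a peak was counted only if its centre was inside, the *pGAL-3Flag-CSE4* input had 0 peaks in the 10 frames.

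In the *psh1Δ* inputs, counts in the frame differed between chromosome XI and the others. In *psh1Δ 3Flag-CSE4*, 4 of the 10 genes had an input peak in the frame (90.6% of like-length genes), and in *psh1Δ pGAL-3Flag-CSE4* 3 of 10 did (78.3%). The mutase gene *GPM1* had 0, 3, 0 and 2 peaks in the 4 inputs, and the aldolase gene *FBA1* had 0, 2, 0 and 2. Both were thus empty in the *PSH1* inputs and held 2 or 3 peaks in the *psh1Δ* inputs. In the *psh1Δ* inputs the median for its own length was 3 and 1 peaks for *GPM1* and 4 and 2 for *FBA1*. *GPM1* thus reached or passed its median in both, and *FBA1* reached it only with the *GAL* copy. The pyruvate kinase gene *CDC19* did not follow this pattern, with 1, 1, 0 and 0 peaks.

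Summed over the members, input peaks in the frame numbered 3, 7, 1 and 5. For the 8 members that are not on chromosome XI the sums were 3, 2, 1 and 1, so the higher sums of the *psh1Δ* inputs rested on *FBA1* and *GPM1*. On that chromosome 98.9% of like-length genes had a peak in the frame in each *psh1Δ* input, against 90.3% and 77.3% on the others. *FBA1* and *GPM1* were still below the like-length genes of chromosome XI. In *psh1Δ 3Flag-CSE4* 32.5% of their frame bases were under input peaks, against 62.7%. In *psh1Δ pGAL-3Flag-CSE4* the values were 20.9% and 46.6%. The part of the chromosome in these values was not tested.

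The 1 *psh1Δ pGAL-3Flag-CSE4* input peak in the *ENO2* frame was the only one to lie wholly within a frame with a near-identical copy in the inputs of the *pGAL* strains. Its 41 bases, shown in full, held 0% unique 24-base words, that is, each of its words also occurs elsewhere in the genome.
ENO2 (chrVIII:451370-451410, plus strand): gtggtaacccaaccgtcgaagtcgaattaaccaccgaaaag
The lists hold peak positions and no reads, so whether its reads came from *ENO2* or from a copy cannot be told apart here.

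**Figure D1:**
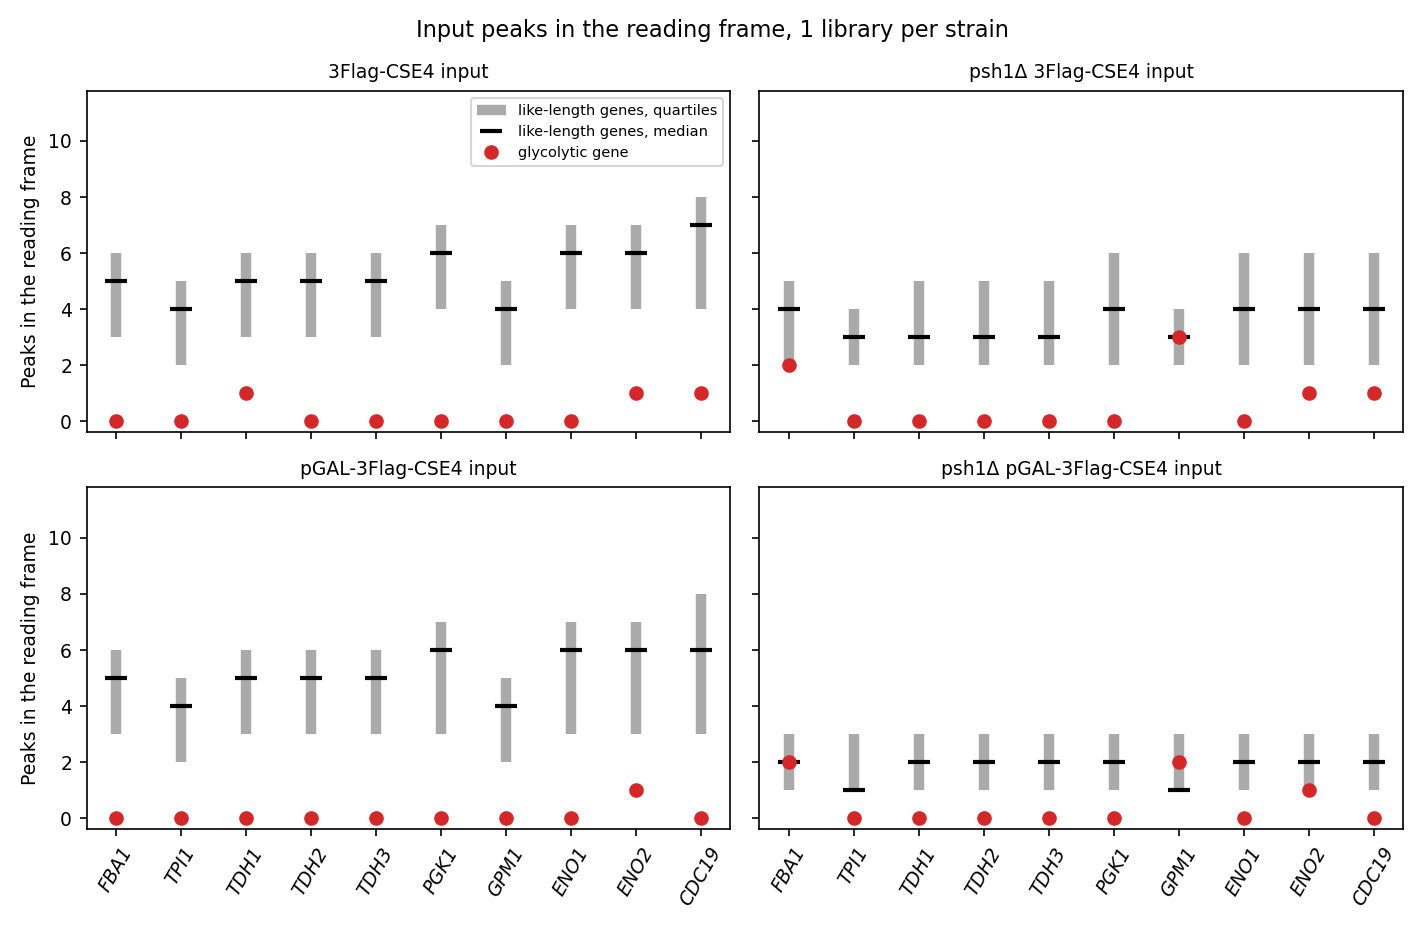
Number of input peaks in the reading frame (vertical axis) of each glycolytic gene (red points), in 4 panels for the 4 input libraries. Black bars are the median and grey bars the quartiles of genes of like length; in the *PSH1* inputs every red point is at 0 or 1, and in the *psh1Δ* inputs *FBA1* and *GPM1* have 2 or 3.

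The shortage was not restricted to frames with a copy elsewhere. The 5 members made of unique words (*FBA1*, *TPI1*, *PGK1*, *GPM1*, *CDC19*) together held 1, 6, 0 and 4 input peaks in the 4 inputs in the order above. Their median was 0, 1, 0 and 0 peaks per gene. In the 3089 other like-length genes with at least 95% unique words the median was 5, 4, 5 and 2 peaks per gene. Of these 5 members, 4 had no peak in either *PSH1* input, as did 53 of 3094 such genes (1.71%). Over all members the numbers were 7 of 10 and 172 of 3375 genes (5.1%). The exception among the 5 was *CDC19*, with its peak at the frame end.

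Stretches without an input peak had a longer median in the members than in other genes, but not in every member. Around the midpoint of each frame, the peak-free stretch had a median of 1674 bp over the members in *3Flag-CSE4* (879 to 2229 bp) and 1784 bp in *pGAL-3Flag-CSE4* (1399 to 2679 bp). The median like-length gene had 109 and 259 bp. In *psh1Δ 3Flag-CSE4* the members' median was 1414 bp against 559 bp. The values came closest in *psh1Δ pGAL-3Flag-CSE4*, the smallest input list, with 1919 bp against 1259 bp. In these inputs the members spread widely, from 269 to 2019 bp and from 539 to 4179 bp. *GPM1* had 269 and 539 bp, below the medians for its own length (399 and 859 bp), and *FBA1* had 859 bp against 549 bp and 869 bp against 1159 bp.

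*TDH3*, the major isozyme gene of the dehydrogenase in growing cells, had 3 input peaks in all, 1 downstream in each of 3 inputs. No input peak lay in its frame or in the 500 bp upstream in any of the 4 inputs. Its peak-free stretch was 1989, 1799, 1969 and 4179 bp in the 4 inputs, and in *3Flag-CSE4* it reached from -679 bp, counted from the frame start, to 311 bp past the frame end. Among the 1362 genes of its own like length, 47 had a stretch at least as long in that input, and among the members *CDC19* (2229 bp) and *PGK1* (2029 bp) had longer ones. The other dehydrogenase genes had upstream input peaks, with *TDH1* at 3, 3, 1 and 1 input peaks and *TDH2* at 1, 1, 0 and 0.

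Upstream windows held fewer input peaks than those of like-length genes, though less starkly than the frames. A peak was found upstream of 7, 8, 4 and 5 of the 10 genes in the 4 inputs, against 94.9, 94.3, 95.9 and 90% of like-length genes. The upstream peaks summed over the members came to 9, 14, 5 and 7, and without *FBA1* and *GPM1* to 8, 10, 3 and 3. With windows of 250 bp, 30, 70, 20 and 40% of members had an upstream input peak.

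The first base of the reading frame, where like-length genes most often had a nucleosome peak, was bare in the members. It was under an input peak in 0, 1, 0 and 0 of 10 members, the 1 being *FBA1*. Like-length genes had a peak there in 62.9, 61.1, 68.2 and 52.4% of cases, which in each input was their highest share at any distance from the frame start.

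Downstream windows held about as many input peaks as those of like-length genes, with fewer bases under peaks in both *PSH1* inputs. All 10 members had an input peak there in *3Flag-CSE4* (94.1% of like-length genes), *psh1Δ 3Flag-CSE4* (91.1%) and *pGAL-3Flag-CSE4* (94.6%). In *psh1Δ pGAL-3Flag-CSE4* 6 of 10 did (62.9%), those without being *TDH3*, *PGK1*, *ENO1* and *ENO2*. The sums of downstream input peaks were 22, 23, 20 and 13, and the median like-length gene had 2, 2, 3 and 1. Without *FBA1* and *GPM1* the sums were 19, 17, 17 and 7. Of the members' downstream bases, 30, 36, 30.7 and 16.8% were under input peaks in the 4 inputs. Like-length genes had 39.2, 32.8, 47.7 and 17.3%. *ENO1* had 4, 2, 1 and 0 downstream input peaks, while *TPI1* and *FBA1* each had 2 in every input.

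**Figure D2:**
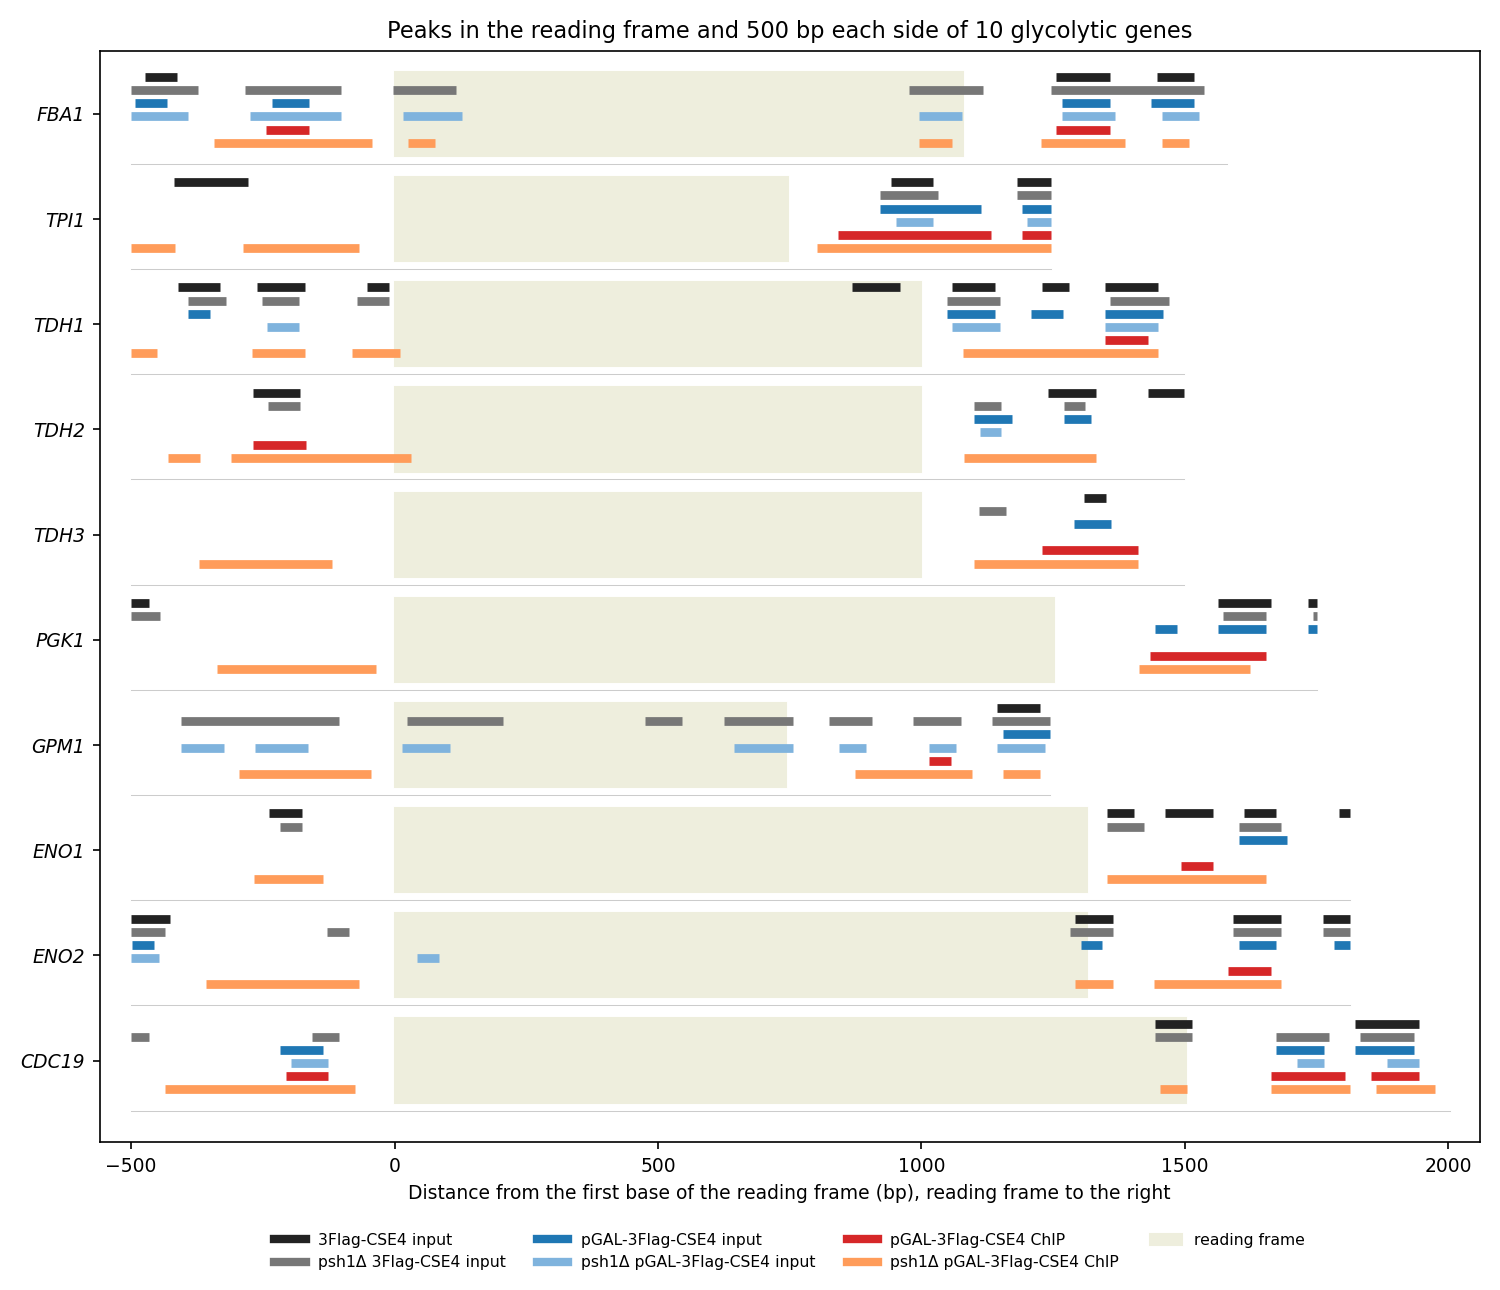
Peaks in and around the 10 glycolytic genes in the 4 inputs and in the ChIP libraries of the *pGAL* strains, by distance in bp from the first base of the reading frame (shaded). Each bar is 1 peak cut at the 500 bp windows; the native *3Flag-CSE4* and *psh1Δ 3Flag-CSE4* ChIP libraries had 0 peaks here, and red and orange bars flank frames that hold few bars of any colour.

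ChIP peaks of Cse4 at these genes were seen only with the *GAL* copy. In *3Flag-CSE4* ChIP, 0 of 10 members had a peak in the frame (0% of like-length genes), upstream (0.148%) or downstream (0.326%). In *psh1Δ 3Flag-CSE4* ChIP the members were again at 0 of 10 in each window, and the like-length shares were 0.178% in the frame, 0.385% upstream and 0.83% downstream. These shares are near 0, so the native strains do not set the glycolytic genes apart.

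With the *GAL* copy and Psh1 present, more of the glycolytic genes had Cse4 peaks past their ends than before or within them. In *pGAL-3Flag-CSE4* ChIP, 0 of 10 members had a peak in the frame, against 22% of like-length genes. Upstream, 3 of 10 did (*FBA1*, *TDH2* and *CDC19*) against 50.3%. Downstream, 9 of 10 did, all but *TDH2*, against 40.7%.

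The downstream peaks varied in width. Bases under them in the 500 bp window came to 346 for *TPI1*, 232 for *CDC19*, 221 for *PGK1* and 181 for *TDH3*. The other members had 101 (*FBA1*), 81 (*TDH1* and *ENO2*), 61 (*ENO1*), 41 (*GPM1*) and 0 (*TDH2*). Over the members 26.9% of the downstream bases were under a *pGAL-3Flag-CSE4* ChIP peak, against 8.06% in like-length genes.

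Downstream positions varied from gene to gene. The 11 downstream peaks were centred 210 to 481 bp past the frame end, with a median of 294 bp. At 240 bp past the end, the distance of the members' highest share, 6 of 10 members lay under a peak. The highest share in like-length genes was 15% (at 190 bp). The 3 upstream peaks were centred at -219 bp (*TDH2*), -203 bp (*FBA1*) and -166 bp (*CDC19*) from the frame start. Like-length genes had their highest share at the first base of the frame, 17.3%, where no member had a peak.

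Most of these peaks lay between genes. Of the 11 downstream peaks, 8 touched no other annotated gene, and the 3 that did were those of *ENO2* in *CTR2*, *PGK1* in *POL4* and *CDC19* in *YAL037C-A*. Of the members, 7 face a convergent neighbour and 3 a tandem one. Of the 7, 6 had a downstream *pGAL-3Flag-CSE4* ChIP peak, and all 3 with a tandem neighbour had one, against 27.4% of convergent and 55.2% of tandem like-length genes. The higher count of the members thus lay in both arrangements. When windows were ended at the next gene, 70% of members and 37.45% of like-length genes had a downstream peak.

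The ChIP peaks mostly sat on input nucleosomes. Of the 11 downstream peaks, 9 touched an input peak of *pGAL-3Flag-CSE4*, those without being *ENO1* and *GPM1*, and of the 3 upstream peaks 2 did. Genome-wide 96.2% of the 4043 *pGAL-3Flag-CSE4* ChIP peaks touched one. The input was subtracted from the ChIP signal before peaks were called, so both lists of a strain are linked by construction.

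**Figure D3:**
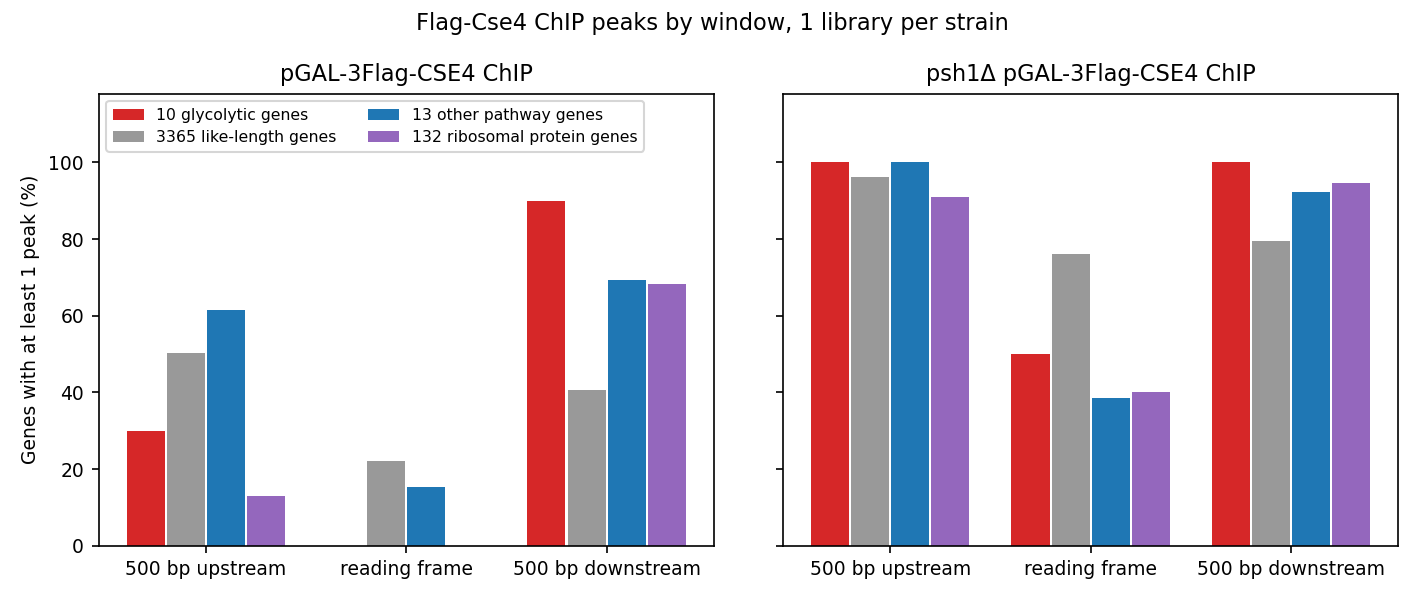
Percentage of genes with at least 1 ChIP peak (vertical axis, from 0) in the upstream, frame and downstream windows, for *pGAL-3Flag-CSE4* (left) and the same with *PSH1* deleted (right). Colours are the 10 glycolytic genes, like-length genes, 13 other genes of the pathway and ribosomal protein genes; on the left the glycolytic bar is at 90% downstream and 0% in the frame.

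With the *GAL* copy and without Psh1, Cse4 peaks were found on both sides of every glycolytic gene. In *psh1Δ pGAL-3Flag-CSE4* ChIP, 10 of 10 members had an upstream peak (96.2% of like-length genes), 10 of 10 a downstream peak (79.6%) and 5 of 10 a peak in the frame (76.1%). The upstream count is near that of other genes. In the frame the members' count was below that of like-length genes. Of the 8 members without *FBA1* and *GPM1*, 8 had an upstream, 8 a downstream and 4 a frame peak, and in *pGAL-3Flag-CSE4* 2, 7 and 0 did.

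What was counted in the frames lay at their edges. *CDC19* and *ENO2* had 1 peak each at the frame end, *TDH1* and *TDH2* had upstream peaks that reached 10 and 32 bp into the frame, and *FBA1* had a pair of peaks, centred 52 and 1027 bp from the start of its 1080-bp frame. Counted by peak centre, 2 of 10 members (*FBA1* and *CDC19*) had a peak in the frame, against 53.3% of like-length genes. The share of frame bases under these peaks was 2.05% in the members and 7.27% in like-length genes.

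Upstream peaks of all 10 genes shared a place. At 260 bp before the frame every member lay under a peak, where 57.8% of like-length genes did. Their highest share at any distance was 62.3%, at 220 bp before the frame. *TDH2* had the most upstream bases under peaks, 370 of 500, then *CDC19* with 361, and *ENO1* had the fewest, 131. At the first base of the frame the order was the opposite, with 2 of 10 members (*TDH1* and *TDH2*) against 59.1%.

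Downstream, every member was under a peak at 170 bp past the frame end, against 46.1% of like-length genes at that distance, whose highest share was 46.8% at 200 bp. *TPI1* had a peak of 461 bp, the widest at these genes, followed by *TDH1* with 371 bp. Of the downstream bases 59% lay under peaks, against 31.7% in like-length genes. *TDH2*, without a downstream peak in *pGAL-3Flag-CSE4*, had 1 of 251 bp here.

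All 14 flanking ChIP peaks of *pGAL-3Flag-CSE4* at the members touched a *psh1Δ pGAL-3Flag-CSE4* peak. So did 99.8% of the *pGAL-3Flag-CSE4* peaks in the genome, while 25.3% of *psh1Δ pGAL-3Flag-CSE4* peaks touched one in the other direction. From the *PSH1* to the *psh1Δ* strain, upstream ChIP peaks of the members numbered 3 and 14, and downstream peaks 11 and 15. For like-length genes the ratio was 2.8 upstream and 2.59 downstream, and for the members 4.67 and 1.36. Bases under downstream peaks numbered 1345 and 2949, and the median peak width was 91 and 211 bp.

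**Figure D4:**
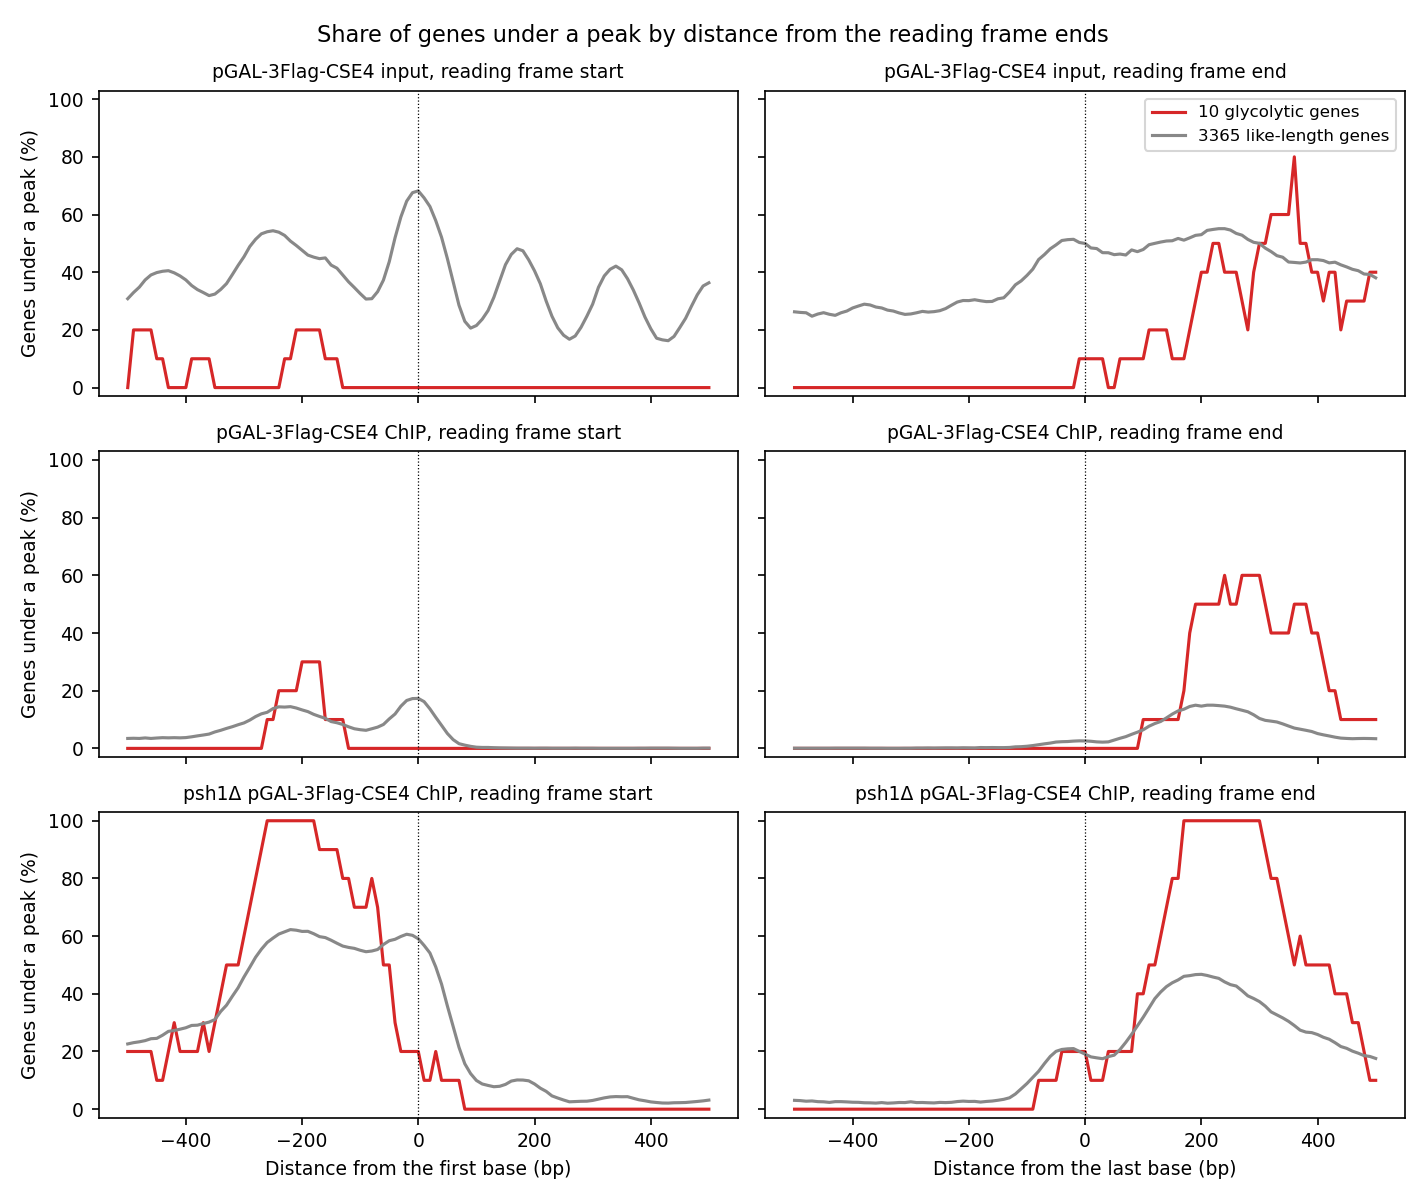
Percentage of genes under a peak (vertical axis) by distance in bp from the first (left) and last (right) base of the reading frame, for the *pGAL-3Flag-CSE4* input and both *pGAL* ChIP libraries. Red lines are the 10 glycolytic genes and grey lines the like-length genes; the red line is at 0 over the first base in the upper panels and reaches 100% at 260 bp upstream in *psh1Δ pGAL-3Flag-CSE4*.

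A pair of motifs was searched in the upstream windows. The Gcr1 box, searched as CTTCC on both strands in the 500 bp upstream, was found in 9 of 10 members, all but *TDH3*, with 20 matches in all and a median of 2 per gene. Of the 6002 upstream windows 66.1% held it, with a median of 1. In *psh1Δ pGAL-3Flag-CSE4* 11 of the 20 matches lay under a ChIP peak, where 55.9% of the members' upstream bases did, and in *pGAL-3Flag-CSE4* 0 did, where 5.26% of bases did. In the 4 inputs, in the order above, 3, 5, 1 and 1 matches lay under an input peak, beside 13.5, 23.3, 5.9 and 12.9% of upstream bases. A longer Rap1 motif was found in 0 of 10 members and in 0.95% of all upstream windows, which says only that its exact letters are not in these windows.

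Other genes of the pathway were counted from a fixed list of 13. The 13 frames held 41, 22, 22 and 5 input peaks in the 4 inputs. *ADH1*, the main alcohol dehydrogenase of fermentation, had 0 input peaks in each, but its frame had only 79% unique words. Several genes of the upper pathway were also sparse, with *HXK2* (hexokinase), *PGI1* (phosphoglucose isomerase), *PFK1* and *PFK2* (phosphofructokinase) at 0 or 1 in every input, although a *PFK1*-length gene had a median of 9 in *3Flag-CSE4*. The mutase homologue *GPM3* had 6, 4, 6 and 2 input peaks, at or above the median for its length in each input, and the minor pyruvate decarboxylase gene *PDC6* had 9, 5, 6 and 1, above it in 2 inputs. Minor isozyme genes were not all like this, since *PYK2* (pyruvate kinase) had 2, 2, 0 and 0 and *GPM2* 5, 4, 1 and 0. *GLK1* (glucokinase) had 0, 2, 0 and 0, and the hexokinase gene *HXK1* had 5, 1, 1 and 0. The pyruvate decarboxylase genes *PDC1* and *PDC5* had 3, 1, 1 and 1 and 7, 2, 5 and 0.

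In *pGAL-3Flag-CSE4* ChIP, 8 of the 13 had an upstream peak and 9 a downstream peak, and without Psh1 13 and 12 did. The 10 members had the lower upstream count (3 of 10) and the higher downstream count (9 of 10) in *pGAL-3Flag-CSE4*. The sets are small, and the difference was not tested.

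Ribosomal protein genes, another heavily transcribed group, were compared by name (*RPL* or *RPS* and a digit). Of these genes 51.5, 57.6, 89.4 and 63.6% had an input peak in the frame in the 4 inputs, above the members in each. Not all are in the length range used above, and among the 101 of like length the shares were 56.4, 69.3, 97 and 77.2%. They too had *pGAL-3Flag-CSE4* ChIP peaks more often downstream (68.2%) than upstream (12.9%), and 0% in the frame. Many of these frames also have a near-identical copy, with a median of 88% unique words.

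By all 24 counts per gene (3 windows in 8 libraries), the genes nearest to the members' median pattern were *RPS8B* (a protein of the small ribosomal subunit) and *HAC1* (the transcription factor of the unfolded protein response), each with a summed absolute difference of 3.5 peaks, then *HXT7* (a hexose transporter), *PAU13* and *GSP1* (the yeast Ran GTPase) with 4.5. A sixth gene was tied at that value. Their frames were not alike in uniqueness, with 99.9% unique words in *HAC1*, 98.6% in *GSP1*, 19.1% in *RPS8B*, 12.65% in *PAU13* and 3.49% in *HXT7*. The members ranged from 3.5 (*PGK1*) to 15.5 (*GPM1*), and the median over all genes was 29.5.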

How the data were processed

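Flag-Cse4 ChIP and input DNA of 4 strains were sequenced as 24-base read pairs, 1 library of each kind per strain. According to the methods and the submitters' processing notes, bases were called with Illumina's Real Time Analysis software, the notes also name CASAVA, and the authors aligned with BWA to sacCer3 and filtered with SAMtools for proper pairs with a mapping score of at least 30 and inserts of 50 to 240 bp (versions of BWA and SAMtools not given in the sources used here). ChIP signal was input-subtracted with DANPOS2, scaled to the centromeres of the strain and set to 0 over ribosomal DNA. ChIP peaks lay above 1 height, taken from the *3Flag-CSE4* centromeres. Settings for input peaks are not given in the sources used here. The deposited lists hold peak positions with a score of 0 in every line, so no height, depth or p-value was used. The study lists read numbers per library, which were not used here.

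Starts were shifted to count from 1, and 0 peak ends passed the end of an R64 chromosome. Reading frames came from the SGD R64-5-1 annotation. A peak counted when it overlapped a window by at least 1 bp. Like-length genes were 0.8 to 1.25 times as long as a member. Words of 24 bases were called unique when found once in the genome on either strand, and profiles were taken every 10 bp. Counting was tested on simulated peaks. Named genes were the members, the 13 pathway genes, the annotated neighbours and the 5 genes of nearest pattern. The members and lists were chosen with earlier results of these data known. Alternatives changed 1 choice at a time and included peak centres, windows of 250 bp, a width of at least 50 bp, merging within 50 bp, lengths of 0.9 to 1.1 times and genes with at least 95% unique words. Python 3.11.15, numpy 2.4.6, scipy 1.17.1, pandas 2.3.3 and matplotlib 3.10.9 were used.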

Additional observations from a re-analysis of the deposited data

Results flagged for a closer look

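The sum of input peaks in the downstream windows of the 10 glycolytic genes was higher with *PSH1* deleted in 1 background and lower in the other. Without the *GAL* copy the sum was higher by 1 in *psh1Δ* (23 against 22), and with the *GAL* copy the difference was -7 (13 against 20). Of the members, 2 were higher and 2 lower without the *GAL* copy, and 1 was higher and 6 lower with it. The lists themselves shrank from 40108 to 31268 and from 39937 to 18908 peaks, and over like-length genes the ratio of downstream input peaks was 0.905 and 0.488. This contrast rested on *GPM1* alone, which had 1, 4, 1 and 4 downstream input peaks in the 4 inputs. *FBA1*, also on chromosome XI, had 2 in every input. Leaving out both genes, the sums were 19 and 17 without the *GAL* copy and 17 and 7 with it, lower in *psh1Δ* in both. With 1 library per group the difference was not tested.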

How the results depend on the processing

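Of 167 recomputed values, 149 stayed within 1.5 times of the reported one and kept their direction, 17 moved by more and 1 reversed. The reversed value is the ratio of input peaks in the reading frames between *psh1Δ 3Flag-CSE4* and *3Flag-CSE4*, 2.33 over 10 members and 0.667 without the 2 on chromosome XI, an alternative chosen after seeing the data. With the *GAL* copy the same ratio went from 5 to 1. Input peaks per member were then 0.25 (0.7 over all 10) in *psh1Δ 3Flag-CSE4*, and 0.125 (0.5) with the *GAL* copy. Counted as bases under peaks, the ratios were 3.99 and 38.5. For the 5 members with unique sequence, input peaks per member were 1.2, 0 and 0.8 in the last 3 of the 4 inputs, and the ratio without the *GAL* copy was 6. By peak centre the *pGAL-3Flag-CSE4* input had 0 peaks per member, the *pGAL-3Flag-CSE4* ChIP share of like-length frames was 12.5%, and 20% of members had a *psh1Δ pGAL-3Flag-CSE4* ChIP peak in the frame. Windows of 250 bp left an upstream input peak at 30% of members in *3Flag-CSE4*, against 70%, and at 20% with the *GAL* copy, against 40%. The latter was also 20% with windows ended at the next gene and with peaks of at least 50 bp, which left 0 *pGAL-3Flag-CSE4* input peaks per member in the frames. Merging peaks within 50 bp and lengths of 0.9 to 1.1 times moved no value by more than 1.5 times. Merging cannot lower a share of genes with a peak, and shares near their maximum cannot rise that far. Its unmoved shares therefore say little. The cause of these shifts was not tested. The alternative with dubious genes was not run, because the annotation used here has none. No paired analysis was possible because each strain had 1 library of each kind. Small counts in 10 genes, and lists that hold no read depth, limit all values.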
